A study of Mus musculus with 12 samples.

Results

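The interferon-stimulated genes are genes that cells switch on after interferon, the signalling protein of antiviral defence, binds its receptor. A fixed list of 47 of them was followed by gene symbol through 12 RNA-seq libraries of mouse tibialis anterior, a fast muscle of the lower leg. All 47 were found among the 26264 genes counted in each library. They were chosen by name, as listed, with earlier results of these data known. The list was split by role into 5 transcription factors, 10 antiviral proteins of the IFIT, ISG15 and MX kind, 6 genes for the OAS family and PKR, 7 nucleic acid sensors and their regulators, 6 interferon-inducible GTPases and 13 other induced genes.

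The labels name 3 groups of 4 libraries: muscle that received 50 µl of matrix gel at 6 mg per ml, muscle that received 50 µl of the vehicle, phosphate-buffered saline (PBS), and uninjured muscle. Gel went to the left leg and PBS to the right leg, and libraries 1 to 4 of both groups carry the same animal numbers, so each PBS muscle is taken as the other leg of a gel animal. Uninjured muscle came from other animals. The side of the body therefore cannot be told apart from the treatment, and in PBS against uninjured muscle the injection, any injury and the gel in the opposite leg cannot be told apart. The sources used here do not give strain, sex, age, the kind of injury or the time to collection.

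Type I interferons bind the receptor made of Ifnar1 and Ifnar2, whose kinases Jak1 and Tyk2 phosphorylate signal transducers such as Stat2. With Irf9, Stat2 takes part in a complex that binds the interferon-stimulated response element (ISRE) in promoters. Interferon gamma binds Ifngr1 and Ifngr2 and acts on the gamma-activated site (GAS). In muscle, both fibres and the immune cells that enter after damage can respond.

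Library totals ran from 15626086 to 22182483 counts. Most low counts were even numbers: between 74.9% and 85.9% of the counts from 1 to 20 in each library, against 55.5% to 60% of the counts over 200. The cause was not tested. Fibre genes marked all libraries as muscle, with Ckm, muscle creatine kinase, at 8440 to 11800 CPM in gel, 12700 to 20700 CPM in PBS and 16100 to 17800 CPM in uninjured muscle (CPM, counts scaled to a common library total). Gel library 3 was unlike the rest of its group: its first principal component score was 5.39, against -67.4, -84.1 and -91.4 for gel libraries 1, 2 and 4. Results that rest on the gel group are therefore given with it and without it.

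Promoters show the DNA to which the interferon factors bind. RefSeq promoter windows of build GRCm38.p6, from 250 bases before to 50 bases after an annotated gene start, were found for 36 of the 47 genes. The ISRE core was searched as GAAA, then 2 bases of any kind, then GAAA, on both strands, and the GAS core as TTCNNNGAA, which reads the same on both strands. An ISRE core was in the windows of 18 of the 36 genes (50.0%), against 1079 of 27025 genes in the whole table (3.99%). A GAS core was in those of 10 of the 36 (27.8%), against 9.55% of all genes. These are matches of letters, not binding sites that were measured, and the genome build differs from that of the counts.

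Windows with an ISRE core, in capitals, are given for 1 or 2 genes of each role, taken by the smallest p in gel against PBS, so that the element can be read beside its gene. They lie at chr19:34640639-34640938 on the plus strand (Ifit1), chr19:34583279-34583578 on the plus strand (Ifit3), chr5:120777610-120777909 on the minus strand (Oas3), chr10:128270248-128270547 on the plus strand (Stat2), chr1:173741760-173742059 on the minus strand (Ifi207), chr3:142559794-142560093 on the plus strand (Gbp3) and chr8:71537423-71537722 on the minus strand (Bst2). Irgm1, at chr11:48871371-48871670 on the minus strand, was added after its values were seen, because it holds the core and had nearly equal levels in gel and PBS muscle. Each window is written 5′ to 3′ along its gene, and TTTC, 2 bases and TTTC is the core on the opposite strand.
Ifit1: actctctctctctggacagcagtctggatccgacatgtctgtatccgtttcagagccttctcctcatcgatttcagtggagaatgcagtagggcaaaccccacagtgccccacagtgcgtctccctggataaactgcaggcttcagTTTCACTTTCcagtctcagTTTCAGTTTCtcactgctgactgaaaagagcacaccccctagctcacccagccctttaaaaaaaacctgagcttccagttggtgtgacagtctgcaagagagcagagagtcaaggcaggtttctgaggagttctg
Ifit3: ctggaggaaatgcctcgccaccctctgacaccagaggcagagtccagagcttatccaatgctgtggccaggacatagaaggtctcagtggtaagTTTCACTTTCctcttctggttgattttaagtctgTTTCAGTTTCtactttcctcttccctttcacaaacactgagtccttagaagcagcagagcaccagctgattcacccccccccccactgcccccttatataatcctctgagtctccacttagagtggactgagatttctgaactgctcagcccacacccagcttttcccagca
Oas3: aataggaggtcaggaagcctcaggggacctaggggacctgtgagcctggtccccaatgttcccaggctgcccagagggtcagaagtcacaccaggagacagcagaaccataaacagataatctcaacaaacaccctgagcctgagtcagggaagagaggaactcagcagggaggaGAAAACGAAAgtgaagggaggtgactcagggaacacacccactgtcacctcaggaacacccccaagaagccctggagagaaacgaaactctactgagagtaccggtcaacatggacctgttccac
Stat2: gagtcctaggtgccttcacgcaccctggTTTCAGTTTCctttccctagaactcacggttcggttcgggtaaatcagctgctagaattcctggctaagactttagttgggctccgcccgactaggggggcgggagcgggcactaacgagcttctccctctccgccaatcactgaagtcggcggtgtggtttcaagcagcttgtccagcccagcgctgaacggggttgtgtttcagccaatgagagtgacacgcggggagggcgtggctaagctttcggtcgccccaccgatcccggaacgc
Ifi207: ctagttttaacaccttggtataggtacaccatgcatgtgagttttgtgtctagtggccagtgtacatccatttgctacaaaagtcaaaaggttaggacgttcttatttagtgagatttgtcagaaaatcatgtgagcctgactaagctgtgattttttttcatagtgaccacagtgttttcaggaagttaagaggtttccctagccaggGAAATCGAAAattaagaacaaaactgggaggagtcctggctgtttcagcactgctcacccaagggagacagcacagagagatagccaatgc
Gbp3: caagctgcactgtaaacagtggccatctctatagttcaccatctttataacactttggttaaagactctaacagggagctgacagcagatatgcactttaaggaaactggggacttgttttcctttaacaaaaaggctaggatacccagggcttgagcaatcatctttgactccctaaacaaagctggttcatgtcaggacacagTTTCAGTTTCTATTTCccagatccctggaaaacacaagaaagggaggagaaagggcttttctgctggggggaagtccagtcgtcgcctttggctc
Bst2: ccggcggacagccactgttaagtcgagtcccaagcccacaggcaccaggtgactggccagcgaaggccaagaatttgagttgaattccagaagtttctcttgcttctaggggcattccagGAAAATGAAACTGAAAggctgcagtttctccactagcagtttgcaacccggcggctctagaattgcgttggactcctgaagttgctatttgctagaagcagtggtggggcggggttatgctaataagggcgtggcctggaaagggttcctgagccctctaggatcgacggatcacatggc
Irgm1: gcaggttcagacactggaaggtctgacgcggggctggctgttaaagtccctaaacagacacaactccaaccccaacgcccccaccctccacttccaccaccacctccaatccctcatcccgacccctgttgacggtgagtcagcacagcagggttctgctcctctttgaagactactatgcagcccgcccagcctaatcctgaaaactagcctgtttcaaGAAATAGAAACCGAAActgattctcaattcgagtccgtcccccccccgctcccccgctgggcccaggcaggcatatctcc

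In Ifit1 and Ifit3 the core occurred at 2 places, starting 104 and 156 bases before the annotated start at the first of them. In Oas3 it began 75 bases before the start, in Stat2 222 and in Ifi207 41. Gbp3, Bst2 and Irgm1 each held 2 cores that overlap, so that the capitals form 1 longer run. By role, the core was found in 5 of 6 GTPase genes, 3 of 4 sensor genes, 3 of 5 OAS and PKR genes, 4 of 7 IFIT, ISG15 and MX genes, 1 of 5 transcription factor genes and 2 of 9 other genes with a window. The GAS core was in 2 of 6 GTPase genes, 0 of 4 sensor genes, 2 of 5 OAS and PKR genes, 1 of 7 IFIT, ISG15 and MX genes, 2 of 5 transcription factor genes and 3 of 9 other genes. The ISRE core was present in 11 of 23 genes that were higher in gel than in PBS muscle and in 7 of 13 that did not pass the test.

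**Figure D1:**
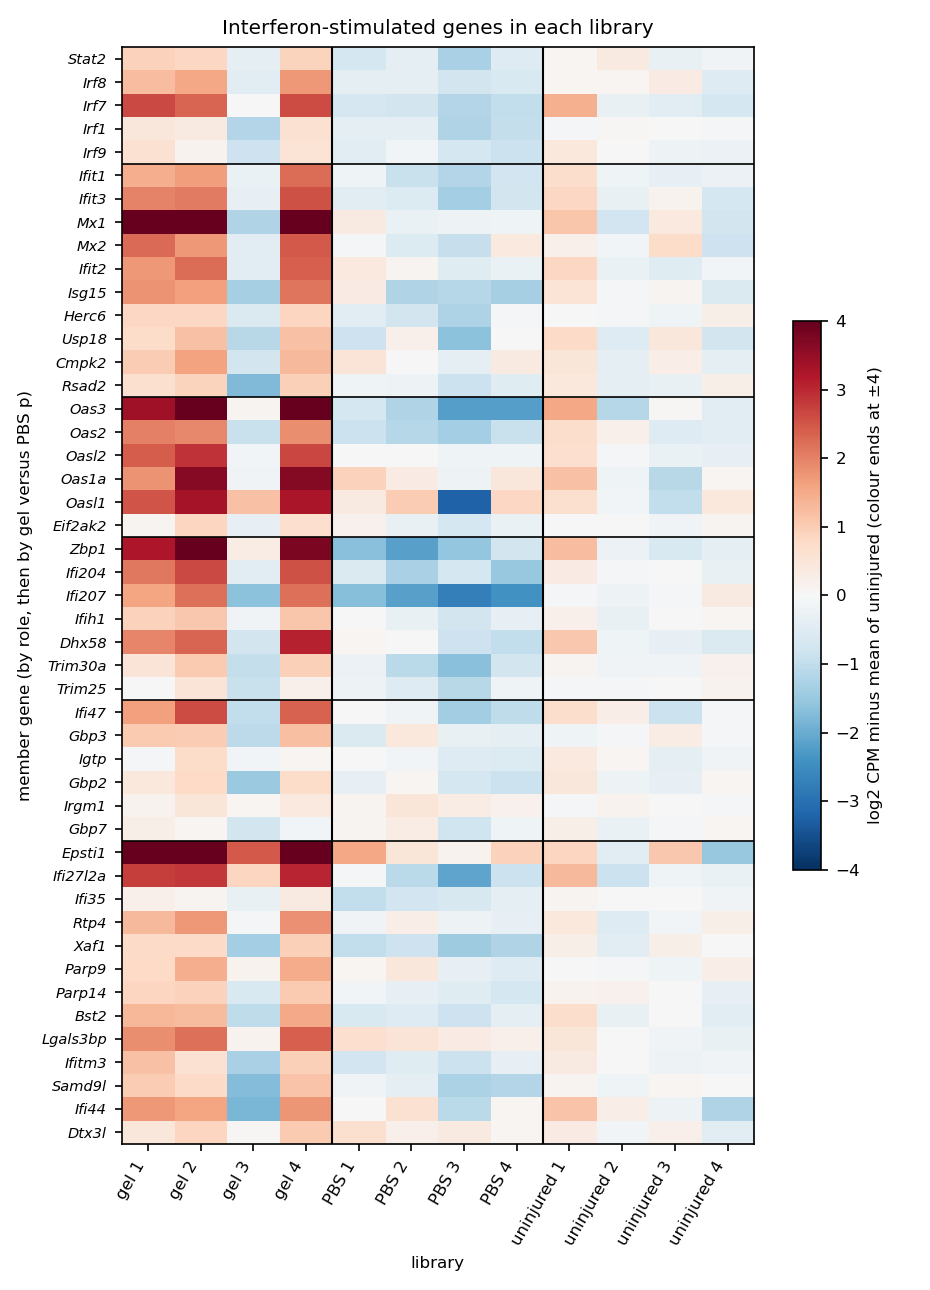
Log2 CPM of the 47 interferon-stimulated genes (rows, by role) in the 12 libraries (columns), as the difference from the mean of the uninjured libraries; colours end at 4 above and below. Gel libraries 1, 2 and 4 are above uninjured for most genes, and gel library 3 is the lowest gel library for 47 of 47.

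Interferon-stimulated genes were higher in gel-treated than in PBS-treated muscle. Of the 47, 33 rose, 0 fell and 14 did not pass the test (edgeR's quasi-likelihood test, Benjamini-Hochberg adjusted p under 0.05 over 13499 genes). Among all genes tested 16.6% rose and 13.2% fell. The median log2 fold change of the 47 was 1.46, against 0.04 over all genes tested, and 46 of the 47 were above 0. Without gel library 3, 44 rose, with a median of 1.74, and 22.3% of all genes rose. Gel library 3 was the lowest gel library for each of the 47, so leaving it out raised their gel means by construction. Counts without it, here and below, are therefore no separate support. The exceptions were then Irgm1, Gbp7 and Dtx3l.

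All 47 passed the filter on low counts, but 6 of them (Mx1, Mx2, Oas1a, Oas3, Zbp1 and Epsti1) would not have passed on the PBS and uninjured libraries alone, so these were tested only because gel libraries held enough counts. Among the other 41, 27 rose and the median was 1.34. For 10 of the 47 (Ifit3, Oas3, Oasl1, Irf7, Zbp1, Ifi204, Ifi207, Epsti1, Ifi27l2a and Ifi35), every gel library lay above every PBS library, which held for 10.4% of all genes. Of these, Oas3, Zbp1 and Epsti1 are among the 6 tested only because gel libraries held enough counts. With the leg pairing as a block, 30 genes rose, 29 of them among the 33, against 12.4% of all genes. This fit, and the counts and medians by role below, include the 6 genes.

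**Figure D2:**
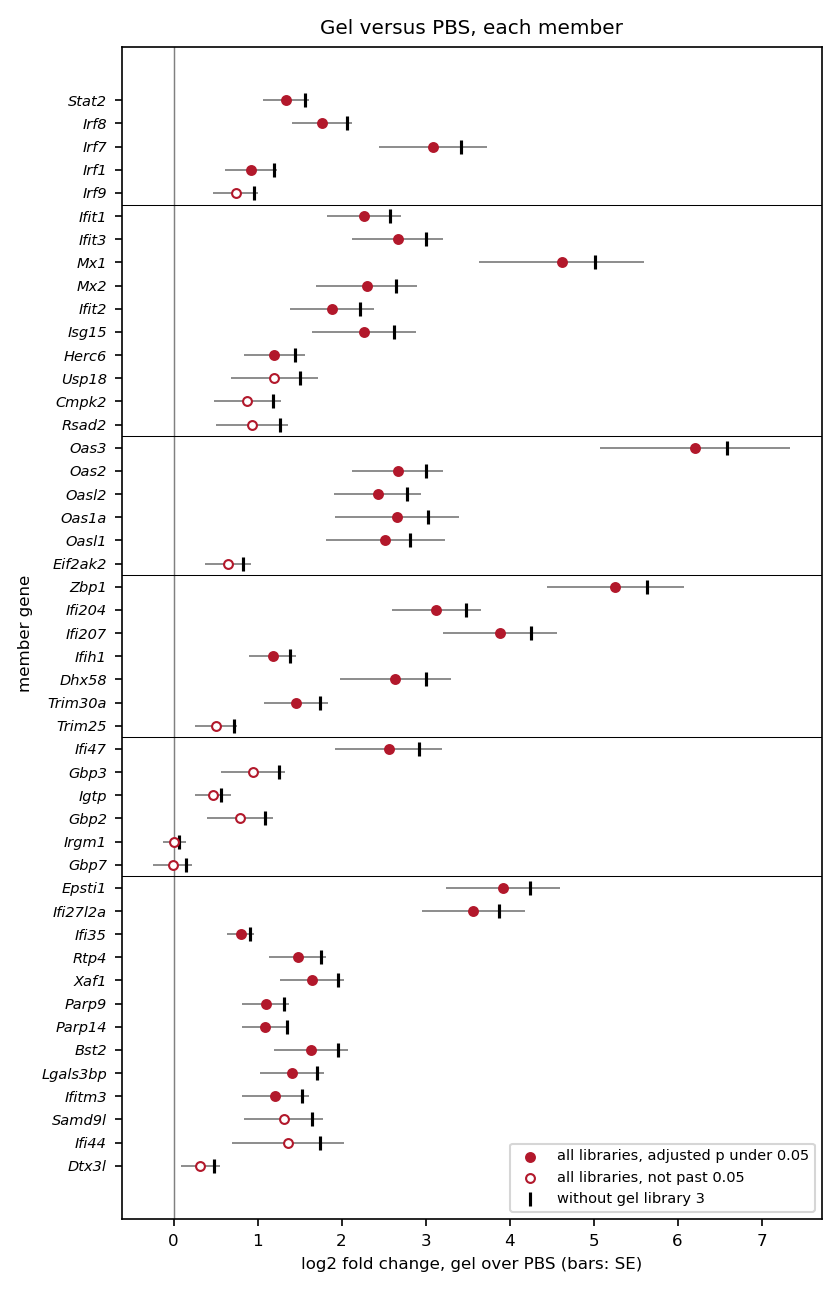
Log2 fold change of each of the 47 genes in gel over PBS muscle with its SE (4 libraries each); filled points passed an adjusted p of 0.05 and ticks show the fit without gel library 3. Oas3 is at 6.21 and Gbp7 at -0.01, and 46 of the 47 are above 0.

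The transcription factor genes carry the interferon signal to DNA. Of these 5, 4 rose in gel against PBS muscle, with a median log2 fold change of 1.34, and 5 of 5 rose without gel library 3. Irf7, the factor that amplifies type I interferon production, had 72.7, 58.6, 11.5 and 70.9 CPM in gel libraries 1 to 4, 7.31, 6.91, 5.15 and 5.76 CPM in PBS libraries 1 to 4 and 31.5, 9.54, 8.52 and 7.09 CPM in uninjured libraries 1 to 4. Gel library 3 was the lowest of its group but above every PBS library, so gel and PBS did not overlap, and uninjured library 1 was well above the other uninjured libraries. Stat2, a subunit of the complex that binds the ISRE, had 37.3, 34.7, 15.1 and 36.3 CPM in the gel libraries, 12.1, 15.2, 8.01 and 13.6 CPM in the PBS libraries and 20.7, 25.1, 16.1 and 18 CPM in the uninjured libraries. Irf8, a factor of myeloid cells, had 15.7, 19.5, 4.82 and 22.4 CPM in the gel libraries, 5.03, 5, 3.95 and 4.32 CPM in the PBS libraries and 6.99, 7.02, 8.38 and 4.56 CPM in the uninjured libraries. In both, gel libraries 1, 2 and 4 were above all others, and gel library 3 lay within the PBS range. Irf9, the DNA-binding subunit of the complex, had 18.1, 13, 6.59 and 17.2 CPM in the gel libraries, 8.59, 10.9, 7.10 and 6.42 CPM in the PBS libraries and 15.9, 11.8, 10.1 and 9.94 CPM in the uninjured libraries, with gel library 3 below PBS libraries 1, 2 and 3.

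The log2 fold change of gel over PBS (± SE) was 3.09 ± 0.64 for Irf7 (adjusted p = 0.00637), 1.77 ± 0.36 for Irf8 (adjusted p = 0.00403) and 1.34 ± 0.27 for Stat2 (adjusted p = 0.00401). Irf1, a factor shared by the responses to both kinds of interferon, rose by 0.92 ± 0.31 (adjusted p = 0.0378), and Irf9, at 0.74 ± 0.27 (adjusted p = 0.0563), did not pass. The call of Irf1 was lost without 9 of the 12 libraries taken one at a time, gel 1, 2 and 4, PBS 3 and 4 and each uninjured library, with adjusted p from 0.0513 to 0.122. It was also lost in limma voom (0.0777).

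The IFIT, ISG15 and MX group holds proteins that act on viral RNA and proteins directly. Of these 10 genes, 7 rose in gel against PBS muscle, with a median log2 fold change of 2.08, and 10 of 10 rose without gel library 3. Ifit1, which binds viral RNA lacking a host cap, had 10.5, 12.1, 3.05 and 17.8 CPM in the gel libraries, 3.26, 1.96, 1.60 and 2.16 CPM in the PBS libraries and 6.14, 3.30, 2.97 and 3.17 CPM in the uninjured libraries. Ifit3, its partner protein, had 23.1, 24.7, 4.52 and 33.9 CPM in the gel libraries, 4.15, 3.86, 2.18 and 3.36 CPM in the PBS libraries and 10.3, 4.68, 6.35 and 3.48 CPM in the uninjured libraries. Gel and PBS libraries did not overlap for Ifit3, and for Ifit1 gel library 3 was below PBS library 1. Mx1, a dynamin-like GTPase against influenza viruses, had 7.57, 10.4, 0.0610 and 9.28 CPM in the gel libraries, 0.395, 0.218, 0.229 and 0.240 CPM in the PBS libraries and 0.739, 0.120, 0.406 and 0.127 CPM in the uninjured libraries. It was near 0 outside gel libraries 1, 2 and 4, and gel library 3 held 1 count of it, fewer than any other library. Rsad2, which encodes viperin, had 8.83, 10.7, 1.59 and 11.2 CPM in the gel libraries, 4.99, 4.89, 3.09 and 4.02 CPM in the PBS libraries and 7.62, 4.38, 4.60 and 6.71 CPM in the uninjured libraries, so gel library 3 was the lowest of all 12.

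Mx1 rose by 4.62 ± 0.98 on the log2 scale (adjusted p = 0.00556), Ifit3 by 2.67 ± 0.54 (adjusted p = 0.00497) and Ifit1 by 2.27 ± 0.44 (adjusted p = 0.00347). Mx2 rose by 2.30 ± 0.60, Isg15, the ubiquitin-like modifier, by 2.27 ± 0.62, Ifit2 by 1.89 ± 0.50 and Herc6, a ligase for that modifier, by 1.20 ± 0.36. Values for Usp18, which removes the modifier, Rsad2 and Cmpk2, a nucleotide kinase, were 1.20 ± 0.52 (adjusted p = 0.0991), 0.93 ± 0.43 (adjusted p = 0.121) and 0.88 ± 0.40 (adjusted p = 0.106). Usp18 passed when the leg pairing was a block (adjusted p = 0.0246). The call of Herc6 was lost when gel 2, gel 4, PBS 2 or PBS 3 was left out (0.0542 to 0.0665). In limma voom the calls of Mx1 (0.229), Mx2 (0.0607), Isg15 (0.0903) and Ifit2 (0.0619) were lost.

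The OAS enzymes make oligoadenylate from double-stranded RNA, which activates an RNA-degrading enzyme, and PKR, encoded by Eif2ak2, halts translation. Of the 6 genes, 5 rose in gel against PBS muscle, with a median log2 fold change of 2.59, and 6 of 6 rose without gel library 3. Oas3 had 5.13, 10.9, 0.427 and 9.50 CPM in the gel libraries, 0.197, 0.109, 0 and 0 CPM in the PBS libraries and 1.36, 0.120, 0.406 and 0.253 CPM in the uninjured libraries. Its PBS libraries held 6 counts in all, with 0 in PBS libraries 3 and 4, so the size of the fold is poorly fixed. Oas2 had 33, 31.3, 4.27 and 29.5 CPM in the gel libraries, 4.44, 3.59, 3.09 and 4.32 CPM in the PBS libraries and 13.4, 9.30, 5.68 and 6.08 CPM in the uninjured libraries. Oasl2, an OAS-like protein, had 50.7, 71.2, 8.67 and 60.8 CPM in the gel libraries, 9.48, 9.41, 8.36 and 8.28 CPM in the PBS libraries and 15.2, 8.88, 7.84 and 7.47 CPM in the uninjured libraries. For both, gel libraries 1, 2 and 4 were above every PBS and uninjured library, and gel library 3 was inside the PBS range. Eif2ak2 had 4.33, 7.29, 3.17 and 6.41 CPM in the gel libraries, 4.54, 3.26, 2.40 and 3.30 CPM in the PBS libraries and 3.98, 4.08, 3.65 and 4.31 CPM in the uninjured libraries, and gel and PBS overlapped.

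On the log2 scale Oas3 rose by 6.21 ± 1.13 (adjusted p = 0.00322), Oas2 by 2.67 ± 0.54 (adjusted p = 0.00515), Oasl2 by 2.43 ± 0.52 (adjusted p = 0.00688), Oas1a by 2.66 ± 0.74 (adjusted p = 0.0168) and Oasl1 by 2.52 ± 0.71 (adjusted p = 0.0200). Eif2ak2 was at 0.65 ± 0.27 (adjusted p = 0.0780). With the leg pairing as a block Oasl2 did not pass (adjusted p = 0.0647). The calls of Oas1a and Oasl1 were lost without gel library 4 (0.0543 and 0.0599), that of Oas1a also without PBS library 3 (0.0518) and in limma voom (0.118), that of Oasl1 without gel library 2 (0.0530), and that of Oas3 in limma voom (0.0663). The OAS genes lie in a cluster of near copies, so reads may be shared between them.

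The sensors detect viral or misplaced nucleic acid in the cell. Of the 7 genes for sensors and their regulators, 6 rose in gel against PBS muscle, with a median log2 fold change of 2.64, and 7 of 7 rose without gel library 3. Zbp1, a sensor of Z-form nucleic acid that can start cell death, had 9.23, 15.3, 1.10 and 13.3 CPM in the gel libraries, 0.197, 0.109, 0.229 and 0.480 CPM in the PBS libraries and 2.22, 0.720, 0.541 and 0.633 CPM in the uninjured libraries. Ifi204, a DNA sensor of the PYHIN family, had 15.9, 23, 2.69 and 21.8 CPM in the gel libraries, 2.42, 1.41, 2.18 and 1.20 CPM in the PBS libraries and 4.60, 3.54, 3.65 and 2.91 CPM in the uninjured libraries. Ifi207, of the same family, had 37.9, 58.7, 4.03 and 58.8 CPM in the gel libraries, 3.85, 2.72, 1.83 and 2.28 CPM in the PBS libraries and 11.9, 11.2, 12.1 and 16.3 CPM in the uninjured libraries. None of the 3 had an overlap between gel and PBS libraries, although gel library 3 exceeded the highest PBS library only narrowly for Ifi204 and Ifi207. For both it was below every uninjured library. Trim25, a ligase that activates the RNA sensor RIG-I, had 15.6, 22.8, 8.42 and 18.2 CPM in the gel libraries, 13.6, 11, 7.21 and 13.9 CPM in the PBS libraries and 14.8, 15.2, 16 and 17.2 CPM in the uninjured libraries, with much overlap.

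Zbp1 rose by 5.26 ± 0.82 on the log2 scale (adjusted p = 0.00200), Ifi207 by 3.89 ± 0.68 (adjusted p = 0.00351) and Ifi204 by 3.13 ± 0.53 (adjusted p = 0.00247). Dhx58, which encodes the RNA helicase LGP2, rose by 2.64 ± 0.66, Trim30a by 1.46 ± 0.38 and Ifih1, the long double-stranded RNA sensor MDA5, by 1.18 ± 0.28. Trim25 was at 0.51 ± 0.25 (adjusted p = 0.145). Ifi204 did not pass with the leg pairing as a block (adjusted p = 0.0543). In limma voom Dhx58 (0.0815) and Zbp1 (0.0539) did not pass. Ifi204 and Ifi207 belong to a cluster of close paralogs, so reads may be shared between its genes.

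The interferon-inducible GTPases act on the vacuoles of intracellular pathogens and are classic targets of interferon gamma. Of the 6, 1 rose in gel against PBS muscle, a share close to the 16.6% of all genes, with a median log2 fold change of 0.63, and 4 of 6 rose without gel library 3. Ifi47, of the immunity-related GTPase family, had 3.59, 7.10, 0.488 and 6.04 CPM in the gel libraries, 1.09, 0.979, 0.343 and 0.480 CPM in the PBS libraries and 1.82, 1.32, 0.541 and 1.01 CPM in the uninjured libraries. Gel libraries 1, 2 and 4 were above the other libraries, and gel library 3 was within the PBS range. Gbp3, a guanylate-binding protein, had 12.4, 12.1, 2.81 and 13.8 CPM in the gel libraries, 3.95, 8.05, 4.75 and 4.56 CPM in the PBS libraries and 5.29, 5.64, 7.23 and 5.70 CPM in the uninjured libraries, with gel library 3 the lowest of all 12. Igtp had 13.6, 23.5, 13 and 14.8 CPM in the gel libraries, 14.4, 13.1, 9.85 and 9.60 CPM in the PBS libraries and 18.7, 14.9, 11.1 and 12.8 CPM in the uninjured libraries, and its 3 groups overlapped. Gbp7 had 15, 13.4, 7.69 and 11.8 CPM in the gel libraries, 13.7, 15.7, 7.33 and 11.4 CPM in the PBS libraries and 15.2, 10.7, 12.3 and 13.4 CPM in the uninjured libraries, and gel and PBS covered nearly the same range.

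Ifi47 rose by 2.56 ± 0.64 on the log2 scale (adjusted p = 0.00978; 0.0854 in limma voom). Values were 0.95 ± 0.38 for Gbp3 (adjusted p = 0.0724), 0.79 ± 0.39 for Gbp2 (adjusted p = 0.151), 0.47 ± 0.21 for Igtp (adjusted p = 0.109), 0.01 ± 0.14 for Irgm1 (adjusted p = 0.981) and -0.01 ± 0.23 for Gbp7 (adjusted p = 0.987). Without gel library 3, Gbp2, Gbp3 and Igtp passed at 1.09 (adjusted p = 0.000657), 1.26 (adjusted p = 0.000155) and 0.56 (adjusted p = 0.0475), and Irgm1 and Gbp7 were at 0.07 (adjusted p = 0.732) and 0.15 (adjusted p = 0.587). The signs of Irgm1 and Gbp7 changed with the scaling or filter, so no direction is given for them.

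Of the 13 other induced genes, 10 rose in gel against PBS muscle, with a median log2 fold change of 1.36, and 12 of 13 rose without gel library 3. Epsti1, whose product was named for epithelial and stromal interaction, had 5.69, 11.8, 1.59 and 9.10 CPM in the gel libraries, 0.790, 0.326, 0.229 and 0.480 CPM in the PBS libraries and 0.455, 0.120, 0.541 and 0 CPM in the uninjured libraries. Ifi27l2a had 13.1, 13.9, 3.42 and 15.9 CPM in the gel libraries, 1.73, 0.816, 0.343 and 0.960 CPM in the PBS libraries and 4.72, 0.960, 1.62 and 1.52 CPM in the uninjured libraries. Ifi35 had 21.3, 19.7, 15 and 23.4 CPM in the gel libraries, 9.28, 10.7, 11.7 and 14 CPM in the PBS libraries and 20, 18.6, 18.7 and 16.5 CPM in the uninjured libraries. In all 3 the gel libraries lay above the PBS libraries, and for Ifi35 uninjured muscle lay above PBS muscle as well. Dtx3l, the ubiquitin ligase partner of Parp9, had 8.66, 11.4, 6.47 and 13.1 CPM in the gel libraries, 9.82, 7.34, 8.13 and 6.60 CPM in the PBS libraries and 7.90, 5.88, 7.30 and 4.62 CPM in the uninjured libraries, with overlap between gel and PBS.

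Epsti1 rose by 3.92 ± 0.68 on the log2 scale (adjusted p = 0.00236), Ifi27l2a by 3.57 ± 0.61 (adjusted p = 0.00269) and Ifi35 by 0.80 ± 0.16 (adjusted p = 0.00308). Xaf1, linked to apoptosis, rose by 1.65 ± 0.38, Bst2, the tetherin that holds budding virus at the membrane, by 1.64 ± 0.44, Rtp4 by 1.48 ± 0.34 and the secreted glycoprotein gene Lgals3bp by 1.41 ± 0.38. Ifitm3, which blocks viral entry, rose by 1.21 ± 0.40, and the genes of the ADP-ribosyltransferase family Parp9 and Parp14 rose by 1.10 ± 0.28 and 1.09 ± 0.28. Samd9l was at 1.31 ± 0.47 (adjusted p = 0.0510), Ifi44 at 1.36 ± 0.67 (adjusted p = 0.140) and Dtx3l at 0.32 ± 0.23 (adjusted p = 0.307).

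With the leg pairing as a block Ifitm3 (adjusted p = 0.127) and Lgals3bp (0.0854) did not pass. The call of Ifitm3 was lost without any 1 of 10 libraries, gel 1, 2 and 4, each PBS library and uninjured 2, 3 and 4 (0.0525 to 0.117), and in limma voom (0.0876). That of Lgals3bp was lost without gel library 4 (0.0582), and that of Bst2 without gel library 4 (0.0552) or PBS library 3 (0.05 when rounded, just past the threshold) and in limma voom (0.0522).

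**Figure D3:**
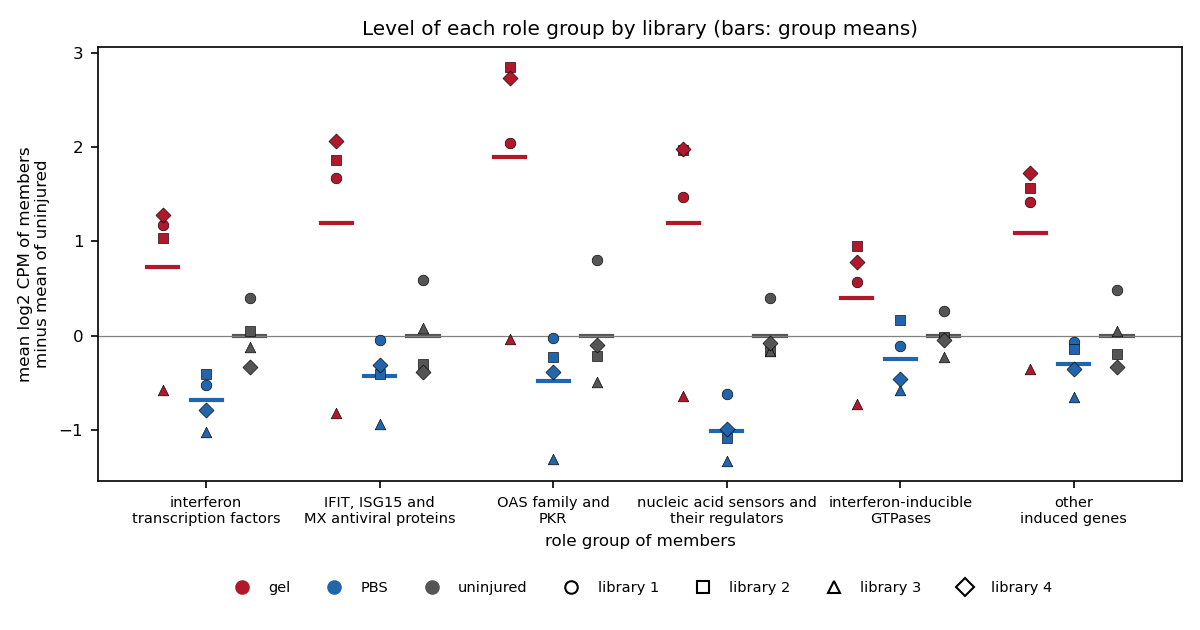
Mean log2 CPM of each role group in each library as the difference from the mean of the uninjured libraries (points, shaped by library number; bars, group means of 4). Gel library 3 lies below the other gel libraries in each role group.

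The 4 gel libraries differed among themselves. The mean log2 level of the 47 genes relative to uninjured muscle was 1.43, 1.72, -0.52 and 1.79 in gel libraries 1 to 4, against -0.19, -0.34, -0.92 and -0.50 in PBS libraries 1 to 4. Gel library 3 thus lay below uninjured muscle but above the PBS library of the same animal, which was the lowest PBS library. It was the lowest gel library for 47 of 47 genes, against 34.0% of all genes tested.

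Within animals, the median difference between the gel leg and the PBS leg over the 47 genes was 1.56, 1.62, 0.22 and 2.08 on the log2 scale for animals 1 to 4. Over all genes tested it was 0.05, 0.06, 0.02 and 0.02. The gel leg was above the PBS leg for 44, 46, 32 and 47 of the 47 genes. In animal 3 the differences ran from -0.99 to 4.40.

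**Figure D4:**
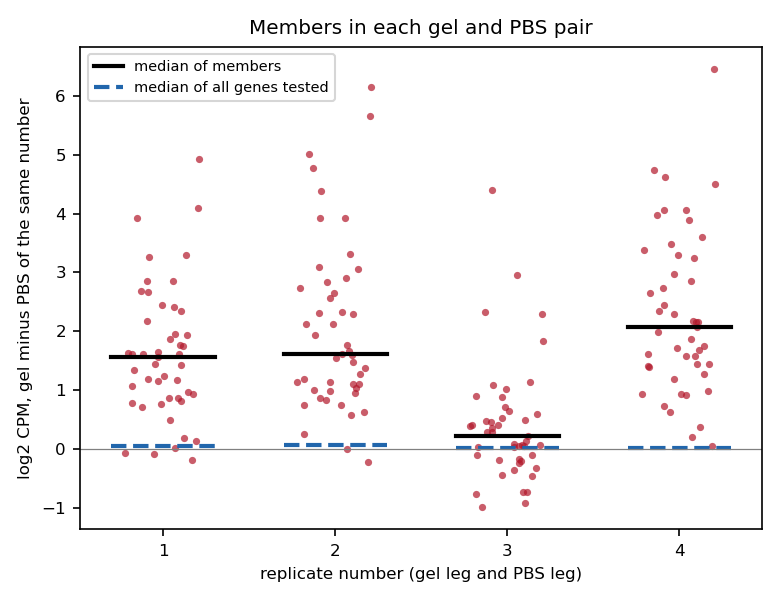
Difference in log2 CPM between the gel leg and the PBS leg of the same animal for the 47 genes (points), with the median of the 47 (black) and of all genes tested (dashed). The medians of the 47 are 1.56, 1.62, 0.22 and 2.08 in animals 1 to 4.

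Macrophage and monocyte markers were also higher in gel-treated than in PBS-treated muscle. Of 17 such markers 15 rose in gel against PBS muscle, where 16.6% of all genes rose, with a median log2 fold change of 4.26. In each PBS library 1 or 2 of the 17 were at 0. How many of the 17 would pass the filter without the gel libraries was not tested. Their summed level was 1030, 1620, 107 and 1860 CPM in gel libraries 1 to 4, against 33.1 to 68.6 CPM in PBS and 49.9 to 88.5 CPM in uninjured libraries. Csf1r, the growth factor receptor of macrophages, had 59.9, 78.5, 6.72 and 87.9 CPM in the gel libraries, 4.64, 3.32, 3.55 and 5.40 CPM in the PBS libraries and 9.04, 3.72, 4.46 and 8.23 CPM in the uninjured libraries. Gel library 3, lowest gel library for the interferon-stimulated genes, was thus also lowest among gel libraries in this sum, and none of the 17 was at 0 in any gel library. The marker sum of gel library 3 was still above every PBS and uninjured library. Its mean log2 level of the interferon-stimulated genes was below uninjured muscle, at -0.52. In bulk tissue, fewer cells of a type and less RNA per cell cannot be told apart. The part of macrophages in the result was not tested.

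Of 7 neutrophil markers only Csf3r, a receptor for a neutrophil growth factor, passed the filter, and it rose by 3.78 on the log2 scale in gel against PBS muscle (edgeR adjusted p = 0.00461). The 7 summed to 18.3, 24.2, 1.22 and 22 CPM in gel libraries 1 to 4, against 1.03 to 2.07 CPM in PBS and 1.14 to 2.53 CPM in uninjured libraries, and Ly6g, another of them, was at 0 in all 12 libraries. T and NK cell markers, none of which passed the filter, summed to 15.2, 14.9, 1.10 and 14.1 CPM in gel libraries 1 to 4, against 0.218 to 1.78 CPM in PBS and 0.633 to 1.35 CPM in uninjured libraries. Of 8 markers of conventional dendritic cells 4 passed the filter and 1 rose, Itgax, which macrophages express too, by 3.76 (edgeR adjusted p = 0.00438). The 8 summed to 19.6, 25.5, 4.40 and 25.2 CPM in gel libraries 1 to 4, against 3.26 to 7.20 CPM in PBS and 3.61 to 4.32 CPM in uninjured libraries. Of 7 markers of plasmacytoid dendritic cells, the main producers of type I interferon in blood, 3 passed the filter and 0 were called, with a median log2 fold change of 0.26. In gel against uninjured muscle 1 of the 3 rose, where 14.5% of all genes rose. The 7 summed to 5910, 3380, 5320 and 2880 CPM in gel libraries 1 to 4, against 5510 to 7180 CPM in PBS and 5490 to 6330 CPM in uninjured libraries. Siglech, 1 of these 7, ran from 0 to 0.619 CPM in gel libraries. It ran from 0 to 0.296 CPM in PBS and 0 to 0.127 CPM in uninjured libraries. The sum of the 7 therefore rests on other genes of the list, and which of them was not tested. Neither the size of this sum nor its differences between libraries are read as a level of plasmacytoid dendritic cells. In gel against PBS muscle, where 16.6% of all genes rose, fibro-adipogenic progenitor markers rose in 4 of 8 cases and endothelial markers in 0 of 8. Whether Csf3r and Itgax would pass the filter without the gel libraries was not tested, nor was the part of these cells.

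**Figure D5:**
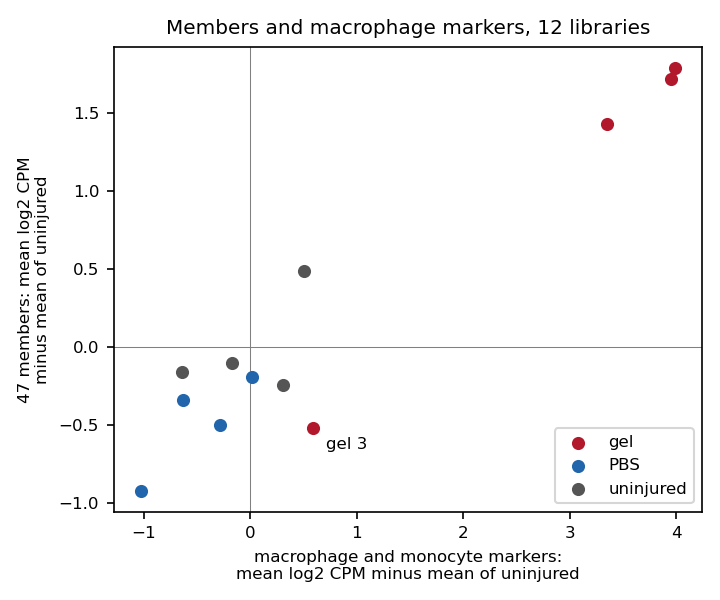
Mean log2 level of 17 macrophage and monocyte markers (x axis) and of the 47 interferon-stimulated genes (y axis) in each of 12 libraries, both as differences from the mean of uninjured muscle. Gel libraries 1, 2 and 4 lie at 3.35 to 3.99 on the x axis and 1.43 to 1.79 on the y axis, and gel library 3 lies at 0.59 and -0.52.

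PBS-treated muscle, which had the injection but no gel in that leg, was compared with uninjured muscle. Of the 47 genes 0 rose and 1 fell, against 2.79% and 3.39% of all genes. Ifi35 fell by 0.69 ± 0.16 on the log2 scale (adjusted p = 0.0169), and its values above show no overlap between PBS and uninjured libraries. The other 46 ranged from -2.64 to 0.72. The median was -0.54, against 0.00 over all genes, and 40 of the 47 were below 0. It was -0.35 without uninjured library 1 and -0.37 without PBS library 3. For 11 of the 47 every PBS library was below every uninjured library, which held for 10.2% of all genes.

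At an unadjusted p under 0.05 the edgeR test found 7 of the 47 (14.9%), each lower in PBS, against 11.5% of all genes lower and 22.4% in either direction. DESeq2 called 4, against 5.55% of all genes lower. The call of Ifi35 was lost without PBS library 1 (adjusted p = 0.0619), PBS library 2 (0.0581) or uninjured library 3 (0.0509), and 10 fell without gel library 3, which enters the estimate of spread, against 6.65% of all genes. Uninjured library 1 was the highest uninjured library for several of the genes shown, among them Irf7 and Ifit1.

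Gel-treated muscle was also above uninjured muscle for part of the list. Of the 47 genes 22 rose and 0 fell, against 14.5% and 11.1% of all genes, with a median log2 fold change of 1.06, against 0.03 over all genes. Among the 41 genes that pass the filter without the gel libraries, 16 rose, with a median of 0.84, and the other 6 were all among the 22. Without gel library 3, 39 of the 47 rose, against 19.8% of all genes. This comparison shares its gel libraries with gel against PBS and its uninjured libraries with PBS against uninjured, so it is no separate support for either. Gel and uninjured libraries did not overlap for 2 genes, Oasl1 and Epsti1, which held for 11.3% of all genes.

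The 12 genes that passed whichever single library was left out were Epsti1, at 4.64 ± 0.73 on the log2 scale, Mx1 at 4.26 ± 0.96, Oas3 at 3.57 ± 0.90, Zbp1 at 3.22 ± 0.69, Oas1a at 2.88 ± 0.76, Oasl1 at 2.78 ± 0.73, Ifi27l2a at 2.38 ± 0.57, Oasl2 at 2.28 ± 0.51, Ifi204 at 2.11 ± 0.50, Lgals3bp at 1.83 ± 0.38, Rtp4 at 1.35 ± 0.34 and Parp9 at 1.06 ± 0.28. In edgeR their adjusted p ran from 0.000950 to 0.0156. These span all the role groups except the transcription factors and the GTPases. In limma voom, 5 of the 12 did not pass: Mx1 (adjusted p = 0.266), Oas3 (0.121), Oas1a (0.119), Zbp1 (0.0770) and Ifi204 (0.0677). Mx1, Oas3, Oas1a, Zbp1 and Epsti1 are among the genes tested only because gel libraries held enough counts. Another 10 passed with all libraries and failed without some single one: Dhx58 at 2.09 ± 0.64, Mx2 at 1.93 ± 0.59, Irf7 at 1.91 ± 0.60, Ifi47 at 1.87 ± 0.61, Ifit3 at 1.80 ± 0.51, Ifit2 at 1.76 ± 0.50, Oas2 at 1.51 ± 0.51, Ifit1 at 1.48 ± 0.43, Irf8 at 1.22 ± 0.35 and Ifih1 at 0.84 ± 0.28.

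The libraries whose removal ended these calls differed by gene. Gel library 2, gel library 4 and uninjured libraries 2 to 4 each ended the calls of Ifit1, Ifit2 and Dhx58, and with gel library 1 those of Ifit3 and Ifi47. For Irf7 and Oas2 any library but gel 3 and uninjured 1 did so. For Irf8 these were gel 2 and 4 and uninjured 1, 2 and 4, for Mx2 gel 1 and 4 and uninjured 1, 2 and 4, and for Ifih1 gel 1, 2 and 4, PBS 4 and each uninjured library. The adjusted p in these fits ran up to 0.132, for Ifih1. The other 25 genes ranged from -0.11 to 1.63.

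The interferon genes themselves were near the limit of detection. Of 21 ligand genes 19 had 0 counts in all 12 libraries, where 3 counts, the limit that a count of 0 allows, correspond to 0.109 to 0.203 CPM. Since low counts were mostly even, this limit would be higher if each molecule was counted more than once, which was not tested. How reads shared by near copies, such as the Ifna genes, were counted is unknown. The limit does not cover reads left out for that reason. Ifng had 0, 4, 0 and 6 counts in gel libraries 1 to 4 and Ifne had 4 in gel library 1, and neither had a count in PBS or uninjured muscle.

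Receptor genes were higher in gel than in PBS muscle for 4 of 5 tested, where 16.6% of all genes rose. Il10rb, a receptor chain shared by interferon lambda, rose by 1.98 ± 0.49 on the log2 scale (adjusted p = 0.0134), Ifnar2 by 1.59 ± 0.33 (adjusted p = 0.00492), Ifngr1 by 0.82 ± 0.22 (adjusted p = 0.0120) and Ifnar1 by 0.68 ± 0.22 (adjusted p = 0.0288). Ifngr2 was at -0.28 ± 0.17 (adjusted p = 0.224). Among the kinases, Tyk2 rose by 0.61 ± 0.16 (adjusted p = 0.0104), and Jak2, the kinase of the interferon gamma receptor, fell to 26.3 ± 5.83 CPM in gel muscle, against 39.5 ± 2.33 CPM in PBS muscle (SD, n = 4 each), without overlap. Jak1 was at -0.28 ± 0.11, and Stat3, a signal transducer, at -0.10 ± 0.14. The call of Ifnar1 was lost without any 1 of 7 libraries, gel 1, 2 and 4 and each PBS library. With the leg pairing as a block Ifnar1 (adjusted p = 0.0501) and Ifngr1 (0.0520) did not pass.

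Among 13 genes that lead to interferon production, 6 rose and 2 fell in gel against PBS muscle, where 16.6% of all genes rose and 13.2% fell. Ikbke, a kinase that activates Irf3 and Irf7, rose by 3.25 ± 0.72 on the log2 scale (adjusted p = 0.00750), and Unc93b1, which carries Toll-like receptors to endosomes, by 2.99 ± 0.61 (adjusted p = 0.00586). Ddx58, the RNA sensor RIG-I, rose by 1.24 ± 0.32, the adaptor gene Myd88 by 1.01 ± 0.28, Sting1 by 0.87 ± 0.30 and Irf3 by 0.33 ± 0.11. Mavs, the mitochondrial adaptor of the RNA sensors, and Traf3 were at -0.49 ± 0.15 and -0.34 ± 0.12, both past the threshold. The calls of Sting1, Irf3, Mavs, Traf3 and Myd88 were lost without some libraries, gel library 4 among them in each case, and those of Sting1 (0.0785), Traf3 (0.0904) and Irf3 (0.0977) also with the block. That of Ikbke was lost in 1 of 20 alternatives.

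Of 9 tested genes that restrain the response, 4 rose in gel against PBS muscle, where 16.6% of all genes rose. They were the phosphatase genes Ptpn6, by 4.03 ± 0.85 on the log2 scale, and Ptpn2, by 0.60 ± 0.16, the RNA editor Adar, by 1.21 ± 0.35, and Nlrc5, by 1.78 ± 0.47. Of these, Ptpn6 is a gene of blood cells. The call of Adar was lost when gel 1, 2 or 4, PBS 1 or PBS 3 was left out (0.0521 to 0.0639). That of Ptpn2 was lost when gel 2 or gel 4 was (0.0554 and 0.0555) and with the leg pairing as a block (0.0593). The calls of Ptpn6 and Nlrc5 were each lost in 1 of 20 alternatives. Best expressed in this list, by CPM without regard to length, was Samhd1, at 0.39 ± 0.15 (adjusted p = 0.0604).

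A further 53 interferon-induced genes outside the list of 47 were tested, and 25 rose (47.2%) and 0 fell in gel against PBS muscle. Over all genes tested, 16.6% rose and 13.2% fell. The PYHIN genes Ifi209, Ifi213 and Ifi211 rose by 5.73 ± 1.21, 3.79 ± 1.12 and 3.14 ± 0.53 on the log2 scale, and Ifi205, Ifi203 and Mndal by 1.90 ± 0.39, 1.38 ± 0.30 and 1.37 ± 0.36. Ifi209 and Ifi213 held 8 and 22 counts in all over the 4 PBS libraries, so the size of their folds is poorly fixed. Which genes of this list would pass the filter without the gel libraries was not tested. The Schlafen genes Slfn8 and Slfn2 rose by 3.96 ± 0.76 and 3.86 ± 0.78, Phf11b and Phf11d by 3.52 ± 0.64 and 1.82 ± 0.33, and the nuclear body genes Sp140, Sp110 and Sp100 by 2.85 ± 0.48, 1.73 ± 0.40 and 1.06 ± 0.27. Ifi30, a thiol reductase of antigen processing, rose by 1.94 ± 0.36. The remaining rises, from 0.56 to 1.90, were found for Oas1b, Mov10, Iigp1, Apobec3, Tor3a, Rnf213, Ube2l6, Ifitm2, Uba7, Ifi27 and Trim12c. Apart from Mov10 and Tor3a, the genes in this last group lost their calls without at least 1 library, gel library 4 among them in each case, as did Mndal and Ifi213. With the block, Slfn2 (0.0660), Ifitm2 (0.0668), Iigp1 (0.0773), Trim12c (0.107) and Ube2l6 (0.269) did not pass. The calls of Ifi209 and Phf11b were each lost in 1 of 20 alternatives, and that of Slfn2 in 2. Ly6e, the best expressed of the list by CPM without regard to length, was at 0.67 ± 0.28 (adjusted p = 0.0902).

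In PBS against uninjured muscle, 1 of 85 tested genes of these pathway lists rose and 3 fell, or 1.18% and 3.53%, against 2.79% and 3.39% of all genes. Irf5, a factor of Toll-like receptor signalling, rose by 1.18 ± 0.17 on the log2 scale (adjusted p = 0.000977), with 29, 35.4, 25.6 and 29.6 CPM in the gel libraries, 31.8, 50.9, 44.3 and 36.8 CPM in the PBS libraries and 22.8, 17, 14 and 18.6 CPM in the uninjured libraries. All PBS libraries were above all uninjured libraries, and gel and PBS overlapped. Ifi205 fell by 2.30 ± 0.40 (adjusted p = 0.00350), Socs3, an inhibitor of the kinases, fell by 2.47 ± 0.64 (adjusted p = 0.0467) and Ifngr1 fell by 0.76 ± 0.22 (adjusted p = 0.0494). The calls of Socs3 and Ifngr1 were lost without any 1 of 9 libraries, gel 1 and each PBS and uninjured library.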

How the data were processed

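The deposited values are whole-number counts for each gene symbol in 12 RNA-seq libraries, not normalised by the authors. Per the submitters' processing notes, STAR, the mouse build mm39 and edgeR were used. Versions, the counting program, strand setting and annotation are unknown from the sources used here, so reads of near copies and of overlapping or antisense genes cannot be told apart. Low counts were mostly even, and the cause was not tested. Intervals and limits from counts cover counting error only. The 47 genes, the role and pathway lists and the tests were chosen with earlier results of these data known.

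The analysis used edgeR 4.0.16 (R 4.3.3): filterByExpr kept 13499 genes, TMM factors scaled the libraries, and a robust quasi-likelihood model with 1 coefficient for each group was fitted to all 12 libraries, with 9 residual degrees of freedom. P-values were adjusted by Benjamini-Hochberg over all genes tested, and the threshold was 0.05. "Rose" and "fell" mean past it. The SE was derived as the absolute log2 fold change over the root of F. Levels are CPM and log2 CPM (prior count 2). Replicate libraries all differed by more than sampling noise.

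The rule for naming genes gave values in every library for the 3 genes with the smallest gel against PBS p and the 1 with the largest in each role group, fold changes for every gene in that comparison and for genes past the threshold in the others, and of the pathway lists the genes past the threshold and the best expressed, of which 1 is not reported here. Csf1r, Siglech and the other cell markers given singly were chosen after their values were seen. Gel and PBS libraries of the same number are paired as legs of 1 animal, from the left and right legs in the labels' protocol and the shared animal numbers in the deposited names. Correlations of their deviations from group means were 0.14, -0.06, 0.31 and 0.08 for numbers 1 to 4. For gel and PBS libraries of unlike number they ran from -0.27 to 0.2, so these values do not by themselves show the pairing. The block fit used the 8 gel and PBS libraries, with 3 residual degrees of freedom. Alternatives were other size factors, other filters, DESeq2 1.42.0, limma 3.58.1 voom, only the groups compared, the block, each library left out and, added after seeing the data, halved counts.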

Additional observations from a re-analysis of the deposited data

Results flagged for a closer look

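In groups of 4 libraries, 23 of 141 groups (each of the 47 genes in each of 3 treatment groups) held a library that stood apart: its gap to the nearest library passed Dixon's critical share of the group's range of log2 CPM. Chance gives this in about 5% of groups, and here 16.3% did, but the 141 groups are not independent, since all genes share the same 12 libraries. Of these, 19 were gel library 3, each time as the lowest. Its levels were 5.49 CPM for Irf1, 11.5 CPM for Irf7, 15.1 CPM for Stat2, 0.488 CPM for Isg15, 1.40 CPM for Herc6, 0.0610 CPM for Mx1, 1.59 CPM for Rsad2, 4.27 CPM for Oas2, 8.67 CPM for Oasl2, 2.81 CPM for Ifih1, 4.03 CPM for Ifi207, 3.85 CPM for Gbp2, 2.81 CPM for Gbp3, 4.46 CPM for Bst2, 3.42 CPM for Ifi27l2a, 0.366 CPM for Ifi44, 2.32 CPM for Xaf1, 2.08 CPM for Samd9l and 7.87 CPM for Parp14. The nearest other gel library was at 3.87 CPM or more for each.

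The other 4 lay in PBS or uninjured muscle. Ifit1 was highest in uninjured library 1, at 6.14 CPM, and the nearest library of that group was at 3.30 CPM. Isg15 was highest in PBS library 1, at 1.78 CPM, and the nearest library of that group was at 0.572 CPM. Mx1 was highest in PBS library 1, at 0.395 CPM, and the nearest library of that group was at 0.240 CPM. Oasl1 was lowest in PBS library 3, at 0 CPM, and the nearest library of that group was at 1.18 CPM.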

How the results depend on the processing

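In gel against PBS muscle the count of 33 stayed between 29 and 36 with other size factors, other filters, DESeq2, the 2 groups alone and halved counts (34). In these fits 10.7% to 18.2% of all genes rose, against 16.6% in the main edgeR fit. The count was 21 in limma voom, where 14.5% of all genes rose. With the leg pairing as a replicate block it was 30, and the block changed no call of the 47 other than those given beside their genes. Leaving out 1 library gave 26 to 44, in fits where 9.9% to 22.3% of all genes rose. The calls of 16 of the 33 held in every alternative. In PBS against uninjured muscle the count of 1 became 4 in DESeq2 and 10 with those groups alone, and 0 to 10 with 1 library left out. Of all genes, 5.55% fell in DESeq2, 8.5% with those groups alone and 1.7% to 6.65% with 1 library left out, against 3.39% in the main fit. In gel against uninjured muscle the count of 22 became 8 in limma voom and 12 to 39 with 1 library left out: 12 without gel library 4, uninjured library 2 or uninjured library 4, 13 without gel library 2 and 39 without gel library 3. Of all genes, 10.9% rose in limma voom and 9.16% to 19.8% with 1 library left out, against 14.5% in the main fit. Of the 22 calls 7 held in every alternative. The cause was not tested.

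The sign of 2 fold changes near 0 in gel against PBS reversed. Irgm1, at 0.01 ± 0.14, became -0.01 with other size factors, -0.01 without a filter, -0.01 in DESeq2, -0.09 without gel library 2, -0.06 without gel library 4, and -0.05 without PBS library 1 or 4, in a range over left-out libraries up to 0.08. Gbp7, at -0.01 ± 0.23, became 0.01 with a mean of at least 1 CPM or in limma voom, 0.15 without gel library 3, 0.06 without PBS library 1 and 0.15 without PBS library 2, in a range down to -0.18. Depth limits Mx1, Mx2, Oas3, Zbp1 and Epsti1, which held 6 to 34 counts in all over the 4 PBS libraries.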
